A study of Mus musculus with 18 samples.

Results

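The ADAM, ADAMTS, ADAMTS-like and TIMP genes and the MMP genes outside the collagenase and stromelysin clusters were described in 2 mouse mammary tumour cell lines, 168FARN and 67NR. Members were taken by symbol: every ADAM, ADAMTS and ADAMTSL gene, *Timp1* to *Timp4*, and 13 MMP genes, if counted in both lines. This gave 74 members of the 24333 symbols counted in both. RNA-seq covered each line as WT cells and with a KO of *Kmt2c* or of *Kmt2d*, with 3 replicates of each of the 6 groups and 18 libraries in all. The WT libraries of 168FARN are labelled as a control sgRNA and those of 67NR as WT. The KO cells were sorted pools, not clones, made by repeated transient transfection with Cas9 and an sgRNA pool against the first exon of *Kmt2c* or *Kmt2d*, so that a pool can hold unedited cells. The study's sequencing of the targeted regions found unmutated reads in every pool but *Kmt2d* KO of 168FARN, with the largest share in *Kmt2c* KO of 67NR. Replicates were passages of the same cells, so p-values measure the spread between passages. All groups shared the same culture medium and carried no further treatment.

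ADAMs are membrane proteases that release the extracellular part of other membrane proteins, a step called shedding, and ADAMTS proteins are their secreted relatives that act on proteoglycans, procollagens and microfibrils. ADAMTS-like proteins resemble the ADAMTS ancillary domains and carry no protease domain. MMPs cut matrix proteins, either as secreted enzymes or from the membrane, and TIMPs bind and block MMPs and some ADAMs and ADAMTS enzymes. In mammary tumours they are known for matrix breakdown, release of growth factors and invasion.

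Total counts per library ran from 14359760 to 43427382 in 168FARN and from 40951775 to 79251530 in 67NR, and the 74 members held 0.121% to 0.212% of the counts. Values are given as CPM, counts scaled to library size with TMM factors within a line. A member was tested if its counts passed the expression filter of edgeR, which left 29 members in 168FARN and 38 in 67NR, all 29 of the former among the latter. The other 36 were tested in neither line, and 11 of them had no read in any library. A gene is called changed at an edgeR quasi-likelihood adjusted p under 0.1 and a log2 change over 0.6 in size. Same-numbered replicates varied together in both lines, but replicates 1 and 2 of different groups did so too. Calls that depend on adding the replicate number as a block are given beside the main ones. Replicate 3 stood apart in both lines. In all 3 genotypes of 168FARN, 8 of the 29 tested members lay at or below 0.5 times the mean of replicates 1 and 2 and 3 lay above 1.5 times it. In 67NR this held for 2 and 4 of the 38. The 8 include *Adamts10*, which had 0 reads in every 168FARN *Kmt2d* KO library, so its ratio is undefined in that genotype. In the third *Kmt2d* KO library of 67NR, the ribosomal transcript *Rn45s* took 28.7% of the counts, against 0.458% to 4.96% in the others.

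Among the WT cells, *Timp1*, *Timp2*, *Adam10*, *Mmp14* and *Adam9* had the highest levels per length in both lines, in different orders. TIMP1 and TIMP2 inhibit MMPs, and TIMP2 also takes part in the activation of pro-MMP2 by MMP14, the membrane-type enzyme MT1-MMP. ADAM10 and ADAM9 are sheddases. In 168FARN WT, as RPKM (CPM per kilobase of exon), mean levels were 93.6 for *Timp1*, 79.3 for *Timp2*, 66.3 for *Adam10*, 65.4 for *Mmp14* and 59.3 for *Adam9*. Each of these overlapped the next in its libraries, and the next gene, *Adam17*, the main sheddase of TNF and of several EGF receptor ligands, was lower without overlap at 18.4. In 67NR WT on the same scale, *Mmp14* at 134.0 lay above *Timp2* at 83.2, and *Timp2* lay above *Adam10* at 38.7, each without overlap. *Adam10*, *Adam9* at 36.9 and *Timp1* at 26.9 overlapped in that order, and *Adam17* at 13.5 was below all of them. *Timp3*, an inhibitor of ADAM17 and of the aggrecanases, and *Timp4* were not tested in either line. *Timp3* was at most 0.26 CPM in any library. Of the 19 ADAMs whose translated transcript holds the zinc-binding protease site, 7 were tested in 168FARN and 10 in 67NR, against 2 and 5 of the 13 ADAMs without it. Of the other groups, 6 of 7 secreted MMPs were tested in each line, 1 and 3 of 6 membrane-type MMPs, 3 and 4 of 7 ADAMTS proteoglycanases, 1 of 3 procollagen N-proteinases in each, 4 of 9 other ADAMTS in each and 3 of 5 ADAMTS-like genes in each.

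**Figure D1:**
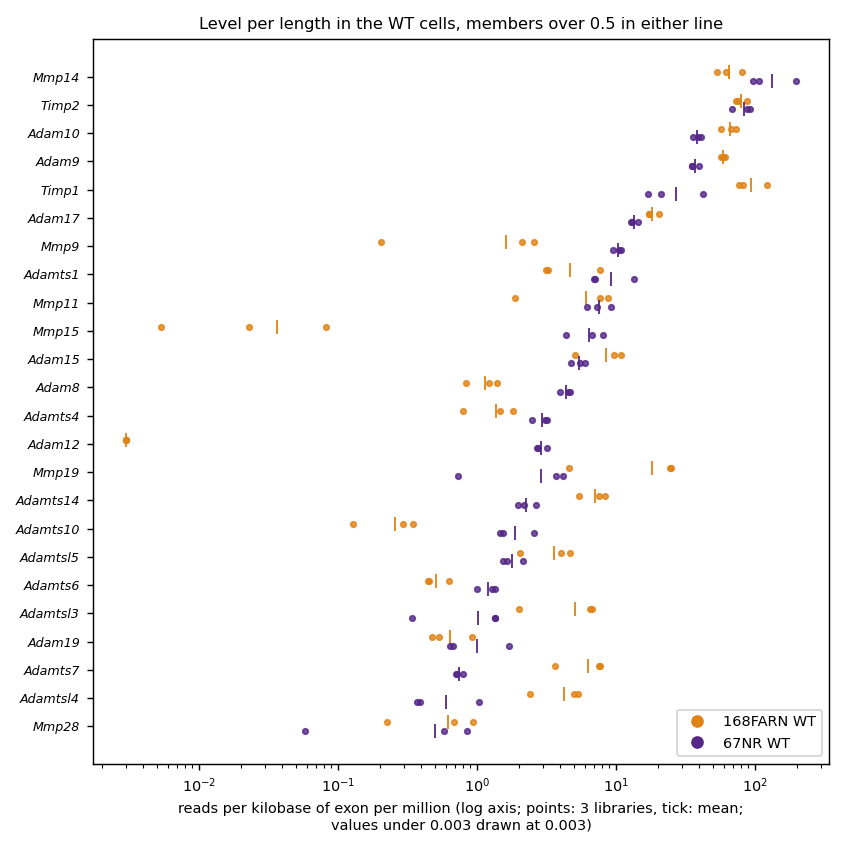
Level per length of the members over 0.5 RPKM in either WT line, on a log axis, with 3 libraries as points, the mean as a tick and values under 0.003 drawn at 0.003. *Adam12*, *Mmp15* and *Adamts10* sit to the left in 168FARN, and *Timp1*, *Mmp19*, *Adamts7*, *Adamtsl3* and *Adamtsl4* sit to the left in 67NR.

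**Figure D2:**
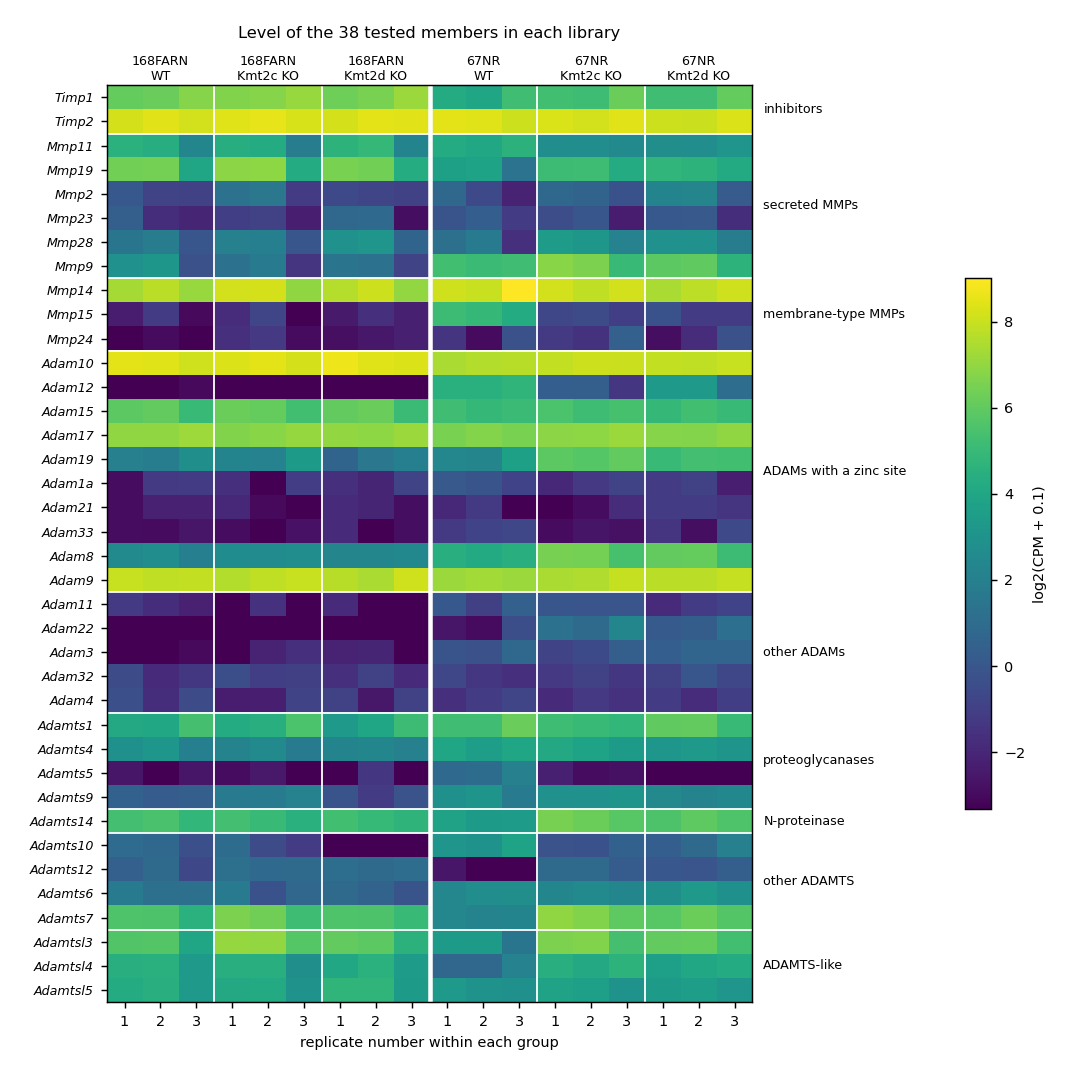
Level of the 38 tested members in each of the 18 libraries as log2(CPM + 0.1), with rows grouped by role and columns by line, genotype and replicate. In 67NR the rows of *Adamts7*, *Adamts14*, *Adam19*, *Adamtsl3* and *Adamtsl4* are brighter in both KO groups than in WT, and those of *Mmp15*, *Adam12*, *Adamts5* and *Adamts10* are darker.

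The first comparison asked how far the WT cells of the lines differ. The lines came as separate count tables with differently named controls, so line, table and control cannot be told apart. Of 39 members tested over all 18 libraries, 14 were higher in 67NR and 10 were lower by edgeR's quasi-likelihood test, against 22.3% and 16.9% of all 13882 genes tested. Of the 14 higher ones, *Adam3*, *Adam12*, *Adam22*, *Adam33*, *Adamts5*, *Mmp15* and *Mmp24* (7 members) did not pass the filter within 168FARN, so that they were tested only through the line in which they were high. Among the members higher in 67NR, *Mmp15*, the membrane-type enzyme MT2-MMP, was at 35.0, 29.1 and 18.9 CPM in 67NR WT and at 0.10, 0.36 and 0.023 CPM in 168FARN WT. Its log2 difference was 7.45 ± 0.93 (SE, n = 3 per line, edgeR adjusted p = 1.1e-05). *Adam12*, a sheddase and adhesion protein also known as meltrin alpha, was at 22.8, 22.4 and 26.5 CPM in 67NR WT and had 1 read over the 168FARN WT libraries, a ratio of 2544 with a 95% counting interval of 456.6 to 100500. *Mmp9*, the secreted gelatinase B, was at 38.4, 33.9 and 37.6 CPM in 67NR WT and at 7.46, 9.11 and 0.72 CPM in 168FARN WT (log2 difference 2.66 ± 0.86, edgeR adjusted p = 0.024). *Adamts9*, *Adamts4*, *Adamts5*, *Adam8*, *Adamts10*, *Adamts6*, *Adam33*, *Mmp14*, *Adam22*, *Adam3* and *Mmp24* were the other members higher in 67NR. *Adam22* had 0 reads in 168FARN WT and was at least 9.14-fold higher in 67NR WT, taking 3 counts over the group as the floor. *Adam3* and *Mmp24* each had 1 read in 168FARN WT, with ratios of 115.1 (95% counting interval 20.7 to 4548) and 36.0 (6.46 to 1422). Leaving out the first or the third 168FARN WT library or the third 67NR WT library ended the call of *Mmp14*, and leaving out the second 168FARN WT library ended that of *Adamts6*. The members lower in 67NR held all 3 tested ADAMTS-like genes, with log2 differences of −2.84 for *Adamtsl4*, −2.32 for *Adamtsl3* and −1.01 for *Adamtsl5*, beside *Adamts7*, *Adamts12*, *Adamts14*, *Mmp19*, *Timp1*, *Adam10* and *Adam9*. The call of *Adamtsl5* was lost without the first or second 168FARN WT library and without the second or the third 67NR WT library. *Timp1* was at 67.9, 72.8 and 108.7 CPM in 168FARN WT and at 18.8, 15.2 and 37.7 CPM in 67NR WT, without overlap (log2 difference −1.80 ± 0.40, edgeR adjusted p = 0.0021). *Timp2* differed by 0.06 ± 0.18 on the log2 scale and was not called.

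In 67NR, members of the ADAMTS, ADAMTS-like, ADAM and MMP groups rose and fell after loss of either gene. In *Kmt2c* KO against WT, 12 of the 38 tested members rose and 6 fell by edgeR's quasi-likelihood test, where 17.9% of all 13662 genes rose and 17.4% fell. In *Kmt2d* KO against WT, 9 rose and 7 fell, where 13.9% of all genes rose and 11.6% fell. The members' median log2 changes were 0.30 and 0.29, and that of all genes was −0.02 in both. Both comparisons share the 3 WT libraries of 67NR. With the replicate block the counts were 19 members in each, against 41.2% and 32.7% of all genes. In *Kmt2c* KO the members that rose were *Adamts7*, *Adamts12*, *Adamts14*, *Adamtsl3*, *Adamtsl4*, *Adam8*, *Adam19*, *Adam22*, *Mmp9*, *Mmp19*, *Mmp28* and *Timp1*, and those that fell were *Mmp11*, *Mmp15*, *Adam12*, *Adam33*, *Adamts5* and *Adamts10*. In *Kmt2d* KO, *Adamts7*, *Adamts12*, *Adamts14*, *Adamtsl3*, *Adamtsl4*, *Adam8*, *Adam19*, *Adam22* and *Mmp2* rose, and *Mmp11*, *Mmp15*, *Adam11*, *Adam12*, *Adamts4*, *Adamts5* and *Adamts10* fell.

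Promoters are shown for members called in both 67NR KO comparisons, to set the sequence at their start sites beside the values that follow. These comparisons share the WT libraries. RefSeq (GRCm38.p6) lists promoter windows of 300 bases, from 250 before the transcript start, for 43 of the 74 members. The 5 printed are those with 1 listed start and the smallest p in *Kmt2c* KO, 3 that rose and 2 that fell. *Adamts14* lies at chr10:61273370-61273669 (minus strand), *Adamtsl4* at chr3:95687868-95688167 (minus strand), *Adamts12* at chr15:11064523-11064822 (plus strand), *Mmp15* at chr8:95352046-95352345 (plus strand) and *Mmp11* at chr10:75932453-75932752 (minus strand). Capitals mark the letters CACCTG, an E-box bound by SNAI and ZEB repressors. TGANTCA, the AP-1 site, and TATAAA, the TATA box, were also searched on both strands and would be in capitals.
Adamts14: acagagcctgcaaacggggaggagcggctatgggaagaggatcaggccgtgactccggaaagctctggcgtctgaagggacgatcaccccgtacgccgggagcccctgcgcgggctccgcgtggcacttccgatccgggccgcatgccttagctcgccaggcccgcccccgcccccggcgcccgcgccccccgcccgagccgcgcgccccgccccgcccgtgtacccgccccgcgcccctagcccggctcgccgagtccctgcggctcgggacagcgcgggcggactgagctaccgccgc
Adamtsl4: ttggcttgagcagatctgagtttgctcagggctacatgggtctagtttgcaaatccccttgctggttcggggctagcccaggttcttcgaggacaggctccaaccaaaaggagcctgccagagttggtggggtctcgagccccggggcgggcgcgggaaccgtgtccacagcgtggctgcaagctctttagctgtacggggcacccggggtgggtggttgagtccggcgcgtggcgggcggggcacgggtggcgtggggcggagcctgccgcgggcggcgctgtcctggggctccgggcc
Adamts12: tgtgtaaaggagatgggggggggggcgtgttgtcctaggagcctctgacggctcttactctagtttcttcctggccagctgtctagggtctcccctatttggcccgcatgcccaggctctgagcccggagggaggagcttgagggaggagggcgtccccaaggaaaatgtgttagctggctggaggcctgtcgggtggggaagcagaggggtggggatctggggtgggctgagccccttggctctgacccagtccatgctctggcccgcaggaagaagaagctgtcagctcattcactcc
Mmp15: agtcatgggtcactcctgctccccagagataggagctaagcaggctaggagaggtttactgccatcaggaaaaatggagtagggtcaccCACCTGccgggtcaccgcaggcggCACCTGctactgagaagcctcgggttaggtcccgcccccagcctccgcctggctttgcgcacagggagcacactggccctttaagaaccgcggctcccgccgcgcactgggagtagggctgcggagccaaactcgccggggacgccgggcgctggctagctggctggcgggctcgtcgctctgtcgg
Mmp11: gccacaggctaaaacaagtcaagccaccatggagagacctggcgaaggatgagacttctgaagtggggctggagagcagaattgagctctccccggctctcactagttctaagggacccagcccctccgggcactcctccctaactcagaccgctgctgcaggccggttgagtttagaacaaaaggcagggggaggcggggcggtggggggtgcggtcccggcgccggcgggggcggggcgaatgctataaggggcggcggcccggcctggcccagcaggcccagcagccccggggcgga
CACCTG occurred 2 times in the *Mmp15* window and in none of the other 4, and neither TGANTCA nor TATAAA occurred in any of the 5. Of all 32851 windows of this length, 20.2% held CACCTG, 7.81% held TGANTCA and 13.6% held TATAAA. Of the 46 windows of members, 19.6% held CACCTG and 10.9% held TGANTCA, and 6 held TATAAA.

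Among the members of 67NR, *Adamts12* and *Adamts7* had the largest fitted rises in both KO comparisons. *Adamts7* (mm9 chr9:90057816-90102909), whose enzyme cuts cartilage oligomeric matrix protein, had 67NR WT values of 5.06, 4.54 and 4.57 CPM, against 124.0, 100.7 and 60.9 after loss of *Kmt2c* and 56.3, 74.1 and 52.7 after loss of *Kmt2d*. All KO libraries lay above all WT libraries. The log2 change was 4.33 ± 0.29 in *Kmt2c* KO (SE, n = 3 per group, edgeR adjusted p = 9.3e-06) and 3.69 ± 0.28 in *Kmt2d* KO (adjusted p = 3.1e-05). *Adamts12*, its closest relative in the family, had 6 reads in the first WT library and 0 in the others, and was at 1.82, 1.84 and 1.11 CPM in *Kmt2c* KO. The *Kmt2d* KO libraries were at 0.92, 0.84 and 1.23 CPM. Its fitted log2 changes were 5.75 ± 0.90 and 5.07 ± 0.89, and since the WT libraries were below the filter these sizes rest on those 6 reads: without the first WT library they became 9.43 and 8.77. *Adamts14* (mm9 chr10:60659860-60736186), a procollagen N-proteinase that trims the ends of fibrillar collagens, measured 13.8, 10.3 and 11.3 CPM over the WT libraries, 89.7, 75.7 and 56.6 over those of *Kmt2c* KO, and 47.7, 62.5 and 49.4 over those of *Kmt2d* KO. No KO library reached down to WT. It rose by 2.65 ± 0.22 and 2.17 ± 0.22 on the log2 scale (edgeR adjusted p = 2.8e-05 and 0.00014).

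The ADAMTS-like genes *Adamtsl3* and *Adamtsl4* rose as well, and *Adamtsl5* was not called in either KO. *Adamtsl3* (mm9 chr7:89484204-89762960) had WT values of 10.5, 10.4 and 2.66 CPM, against 95.8, 101.2 and 40.8 after loss of *Kmt2c* and 66.9, 68.5 and 38.8 after loss of *Kmt2d*. Replicate 3 was the lowest in each group, and the groups did not overlap. The log2 changes were 3.33 ± 0.56 and 2.88 ± 0.55 (edgeR adjusted p = 0.0017 and 0.0054). *Adamtsl4* (mm9 chr3:95480124-95491840), whose product binds fibrillin microfibrils, measured 1.55, 1.65 and 4.35 CPM over the WT libraries, 20.9, 17.3 and 24.6 over those of *Kmt2c* KO, and 12.3, 15.9 and 19.3 over those of *Kmt2d* KO. It rose by 3.07 ± 0.42 and 2.67 ± 0.41 on the log2 scale (edgeR adjusted p = 0.00052 and 0.0018).

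The fibrillin-associated *Adamts10* and the aggrecanase *Adamts5* fell. *Adamts10* (mm9 chr17:33661149-33690727) had WT values of 8.48, 7.97 and 14.2 CPM, against 0.80, 0.76 and 1.31 after loss of *Kmt2c* and 1.18, 1.84 and 3.998 after loss of *Kmt2d*. The log2 changes were −3.42 ± 0.50 and −2.13 ± 0.47 (edgeR adjusted p = 0.0008 and 0.011), and neither KO group overlapped WT. *Adamts5* (mm9 chr16:85858415-85901370) was at 1.78, 1.95 and 4.03 CPM in WT and at 0.11, 0.032 and 0.048 CPM in *Kmt2c* KO, a log2 change of −5.26 ± 0.69 (edgeR adjusted p = 0.0011). In *Kmt2d* KO it had 0 reads in all 3 libraries, so it was at least 123.9-fold lower than in WT, with 3 counts over the group as the floor. It passed the filter through the 3 WT libraries alone. Of the other tested proteoglycanases, *Adamts4* fell by 0.65 ± 0.22 on the log2 scale in *Kmt2d* KO (edgeR adjusted p = 0.061), a call lost on leaving out any *Kmt2d* KO library or the first WT library, and *Adamts1* and *Adamts9* were not called in either KO.

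Among the ADAMs, *Adam19* and *Adam8* rose and *Adam12* fell in both KO groups of 67NR. *Adam19* (mm9 chr11:45868004-45960845), meltrin beta, a sheddase of neuregulin 1, measured 5.10, 4.81 and 12.8 CPM over the WT libraries, 59.6, 54.8 and 65.7 over those of *Kmt2c* KO, and 32.5, 39.3 and 38.6 over those of *Kmt2d* KO. Its log2 changes were 2.99 ± 0.37 and 2.29 ± 0.36 (edgeR adjusted p = 0.00028 and 0.0019), without overlap. *Adam8*, best known from leukocytes, had means of 20.3 ± 1.72 CPM in WT, 72.7 ± 26.7 after loss of *Kmt2c* and 56.5 ± 18.4 after loss of *Kmt2d* (SD, n = 3), and rose by 1.84 ± 0.33 and 1.48 ± 0.33 on the log2 scale. *Adam12* was at 1.20, 1.22 and 0.29 CPM after loss of *Kmt2c* and at 10.2, 10.2 and 2.05 CPM after loss of *Kmt2d*, below its WT range of 22.4 to 26.5 CPM in each library. The log2 changes were −4.70 ± 0.69 and −1.68 ± 0.60 (edgeR adjusted p = 0.00082 and 0.077). The call in *Kmt2d* KO was lost on leaving out the first or second *Kmt2d* KO library or any WT library. *Adam22*, which lacks the zinc site and is known as a receptor at synapses, rose by 3.65 ± 1.00 and 2.58 ± 0.97 from a WT mean of 0.26 CPM. The call in *Kmt2d* KO was lost without any one of its libraries and without the first or second WT library. *Adam33* fell in *Kmt2c* KO by 3.18 ± 0.90 on the log2 scale and *Adam11*, another member without a zinc site, fell in *Kmt2d* KO by 1.39 ± 0.54. Both were low, at most 1.26 CPM for *Adam11* and 0.56 CPM for *Adam33* in any library, and the call of *Adam11* was lost without the first or second *Kmt2d* KO library and without the first or the third WT library.

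The best-known sheddases moved little. *Adam10* had WT values of 176.2, 194.2 and 202.4 CPM, against 235.4, 264.4 and 263.3 after loss of *Kmt2c* and 232.5, 228.2 and 254.1 after loss of *Kmt2d*. Both KO groups lay above WT without overlap, but the log2 changes of 0.41 ± 0.13 and 0.32 ± 0.13 were below the size needed for a call (edgeR adjusted p = 0.035 and 0.11). *Adam17* measured 92.7, 103.9 and 93.5 CPM over the WT libraries, 116.3, 120.5 and 143.1 over those of *Kmt2c* KO, and 108.3, 106.4 and 123.2 over those of *Kmt2d* KO. Its log2 changes of 0.39 ± 0.14 and 0.22 ± 0.14 were likewise not called (edgeR adjusted p = 0.059 and 0.31).

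Of the MMPs in 67NR, *Mmp15* and *Mmp11* fell in both KO groups. *Mmp15* (mm9 chr8:97876168-97898193), at 35.0, 29.1 and 18.9 CPM in WT, was at 0.52, 0.63 and 0.39 CPM after loss of *Kmt2c* and at 0.76, 0.34 and 0.36 CPM after loss of *Kmt2d*. Its log2 changes of −5.74 ± 0.42 and −5.81 ± 0.42 (edgeR adjusted p = 1.5e-05 and 2.4e-05) were the lowest among members with reads in every library. *Mmp11* (mm9 chr10:75385967-75400678), stromelysin 3, had WT values of 19.4, 16.5 and 24.4 CPM, against 6.47, 6.46 and 5.79 after loss of *Kmt2c* and 6.82, 6.59 and 8.59 after loss of *Kmt2d*. It fell by 1.69 ± 0.21 and 1.45 ± 0.21 on the log2 scale (edgeR adjusted p = 0.00028 and 0.0011), without overlap. *Mmp9* was at 38.4, 33.9 and 37.6 CPM in WT and at 112.2, 96.7 and 32.3 CPM in *Kmt2c* KO, where the third library lay below WT. It was called in *Kmt2c* KO at a log2 change of 1.13 ± 0.46 (edgeR adjusted p = 0.086), but not on leaving out the first or second *Kmt2c* KO library or any WT library. In *Kmt2d* KO it was at 59.3, 63.6 and 24.98 CPM and was not called (log2 change 0.43 ± 0.45, edgeR adjusted p = 0.56). *Mmp19* and *Mmp28* rose in *Kmt2c* KO by 1.62 ± 0.55 and 2.06 ± 0.75 on the log2 scale. In *Kmt2d* KO they had log2 changes of 1.26 ± 0.54 and 1.67 ± 0.75 (edgeR adjusted p = 0.13 and 0.15), which passed with the replicate block (adjusted p = 0.0059 and 0.003). The *Kmt2c* KO calls of both were lost without its first or second library, and that of *Mmp28* also without the first WT library.

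*Mmp2*, gelatinase A, was called in *Kmt2d* KO of 67NR, and *Mmp14*, whose enzyme activates it at the membrane, in neither KO. *Mmp2* measured 1.65, 0.56 and 0.14 CPM over the 67NR WT libraries, 1.63, 1.40 and 0.77 over those of *Kmt2c* KO, and 4.56, 4.85 and 1.08 over those of *Kmt2d* KO. The log2 change in *Kmt2d* KO was 2.14 ± 0.83 (edgeR adjusted p = 0.097), although the third *Kmt2d* KO library overlapped WT, and this was lost without the first or second *Kmt2d* KO library or the second or the third WT library. In *Kmt2c* KO it had a log2 change of 0.68 ± 0.81 (edgeR adjusted p = 0.57) and passed with the replicate block (1.02 ± 0.46, adjusted p = 0.082), a call lost without the second or the third library of either group. *Mmp14* had WT values of 278.5, 251.5 and 513.8 CPM, against 283.9, 225.9 and 290.2 after loss of *Kmt2c* and 172.5, 217.8 and 278.8 after loss of *Kmt2d*. The groups overlapped and *Mmp14* was not called (log2 changes −0.38 ± 0.29 and −0.64 ± 0.29, edgeR adjusted p = 0.35 and 0.15).

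Of the inhibitors, *Timp1* moved and *Timp2* did not pass the test. *Timp1* (mm9 chrX:20447292-20451861) measured 18.8, 15.2 and 37.7 CPM over the 67NR WT libraries, 38.7, 35.6 and 76.4 over those of *Kmt2c* KO, and 36.9, 37.3 and 68.9 over those of *Kmt2d* KO. Replicate 3 was the highest in each group, so the groups overlapped, while each KO library was above the WT library of its number. The log2 change was 1.07 ± 0.43 in *Kmt2c* KO (edgeR adjusted p = 0.085) and 1.00 ± 0.43 in *Kmt2d* KO (adjusted p = 0.13), and with the replicate block both passed, at 1.09 ± 0.13 (adjusted p = 3.1e-05) and 1.04 ± 0.13 (adjusted p = 7.9e-05). Without the block the *Kmt2c* KO call was lost on leaving out the third *Kmt2c* KO library or the first or second WT library. *Timp2* had WT values of 362.5, 341.9 and 268.2 CPM, against 320.5, 285.3 and 353.3 after loss of *Kmt2c* and 266.3, 258.0 and 327.6 after loss of *Kmt2d*, with log2 changes of −0.02 ± 0.17 and −0.19 ± 0.17 (edgeR adjusted p = 0.94 and 0.48).

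**Figure D3:**
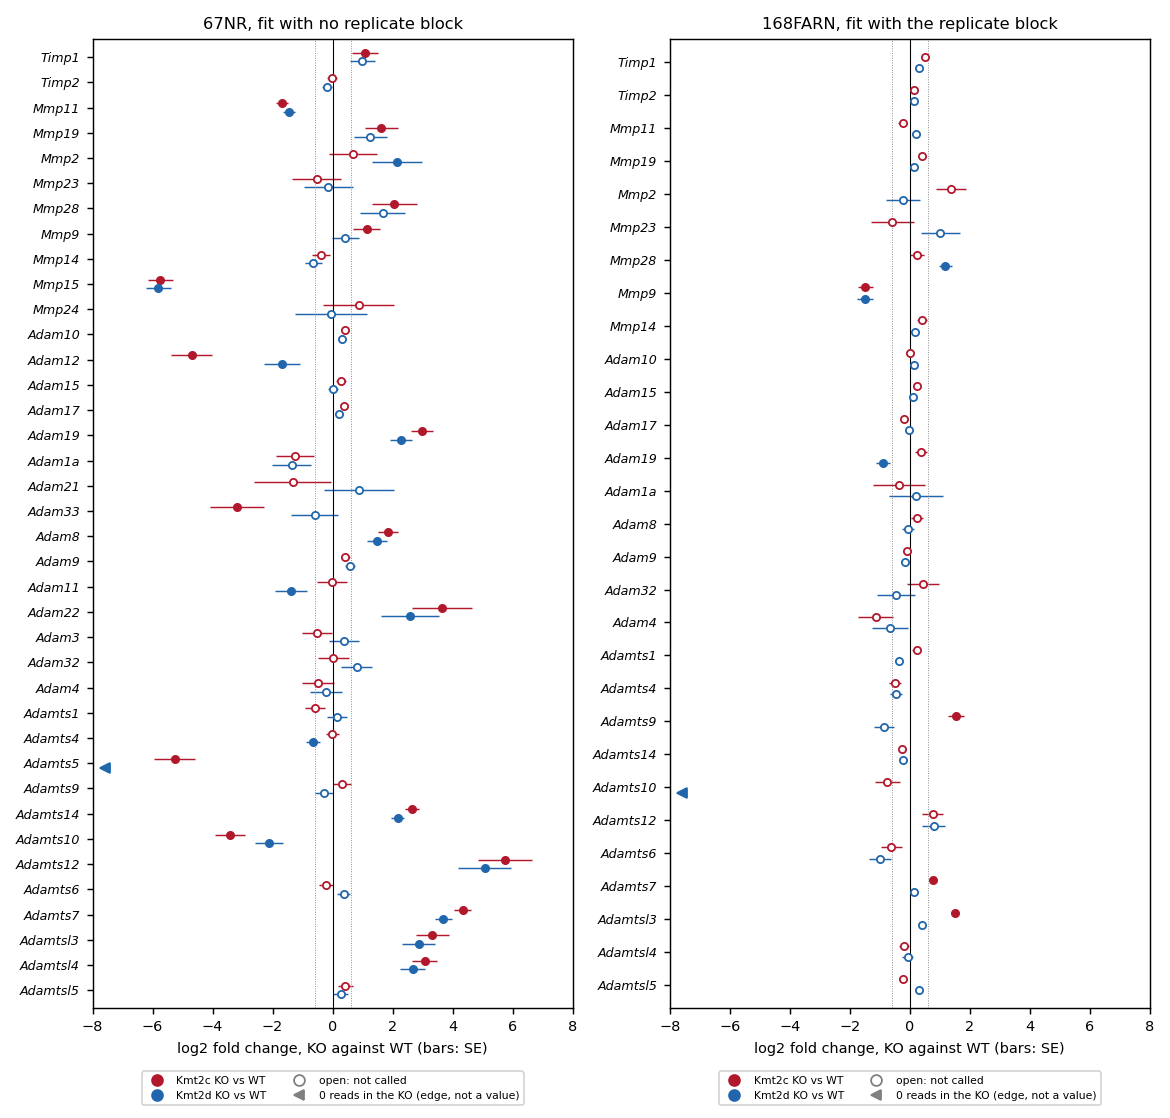
Log2 fold changes of the tested members in *Kmt2c* KO and *Kmt2d* KO against WT, with SE bars, for 67NR (38 members, no replicate block) and 168FARN (29 members, with the replicate block). Filled symbols were called, dotted lines mark a log2 change of 0.6, and a triangle at the edge marks a KO group with 0 reads (*Adamts5* in 67NR, *Adamts10* in 168FARN). In 67NR the filled circles reach from −5.81 for *Mmp15* to 5.75 for *Adamts12*, and in 168FARN 4 symbols are filled in each KO.

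Leaving out the *Kmt2d* KO library rich in *Rn45s* gave 16 called members in that comparison, of which 14 were among the 16 called with it. *Adam22* and *Adamts4* were lost and *Adamts8* and *Adamts13* were added. The range over all single libraries left out was 11 to 17 in *Kmt2d* KO and 15 to 20 in *Kmt2c* KO. *Adamts12* passed it in 0 WT libraries and all 6 KO libraries, and *Adam33* in 3 WT, 0 *Kmt2c* KO and 2 *Kmt2d* KO libraries, so that their presence among the tested members came with a difference between groups. Exons of *Adam15*, *Adam19*, *Adamts9*, *Mmp19*, *Mmp24* and *Mmp28* overlap an annotated gene on the opposite strand over between 7.8% and 23.1% of their length. This leaves their values uncertain, and whether the counting used strand is not given in the sources used here. *Adam1a* shares 24.9% of its exon length with *Mapkapk5* on the same strand, so its values are uncertain too.

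In 168FARN, loss of either gene moved few members. No member was called in *Kmt2c* KO or in *Kmt2d* KO against WT by edgeR's quasi-likelihood test, where 0.359% and 0.286% of all 12253 genes were. In each, 2 members had an unadjusted p under 0.05. No share of all genes under that p is given, so this count is not a result about the members. By DESeq2, *Adamts9* was called in *Kmt2c* KO and *Adamts10* in *Kmt2d* KO, 1 member each, where 2.35% and 2.02% of all genes were. With the replicate block, 3 members rose and 1 fell in *Kmt2c* KO, where 3.66% of all genes rose and 3.57% fell, and 1 rose and 3 fell in *Kmt2d* KO, where 2.73% rose and 3.17% fell. On replicates 1 and 2 alone, 8 and 5 members were called. The share of all genes called in that setting is not given, so these counts are not a result about the members. The members' median log2 changes were 0.15 and −0.02, and that of all genes was 0.01 in both, without the block.

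*Adamtsl3* rose in 168FARN *Kmt2c* KO with the replicate block. It measured 50.1, 51.8 and 15.5 CPM over the WT libraries, 132.0, 130.2 and 54.2 over those of *Kmt2c* KO, and 66.9, 60.3 and 23.98 over those of *Kmt2d* KO. Replicate 3 was the lowest in each group, and every *Kmt2c* KO library was above every WT library. The log2 change was 1.51 ± 0.12 (edgeR adjusted p = 1.5e-05). *Adamts7* was at 49.2, 47.9 and 23.4 CPM in WT and at 96.5, 79.8 and 35.6 CPM in *Kmt2c* KO, higher in 3 of 3 pairs with overlapping groups (log2 change 0.78 ± 0.14, edgeR adjusted p = 0.0045). *Adamts9*, a proteoglycanase that cuts versican, was at 1.33, 1.102 and 1.23 CPM in WT and at 3.15, 3.16 and 4.35 CPM in *Kmt2c* KO, without overlap (log2 change 1.54 ± 0.28, edgeR adjusted p = 0.0049). In *Kmt2d* KO it was at 0.82, 0.35 and 0.78 CPM and was not called. Genes on the opposite strand overlap 11.0% and 3.4% of its exons.

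*Mmp9* fell in both KO groups of 168FARN with the replicate block. It had WT values of 7.46, 9.11 and 0.72 CPM, against 2.41, 3.37 and 0.27 after loss of *Kmt2c* and 2.55, 2.40 and 0.48 after loss of *Kmt2d*. The third library of each genotype was the lowest, the groups overlapped, and each KO library was below the WT library of its number. The log2 changes with the block were −1.48 ± 0.25 (edgeR adjusted p = 0.0041) and −1.49 ± 0.27 (adjusted p = 0.0065). *Mmp28*, epilysin, was at 2.65, 3.63 and 0.88 CPM in WT and at 7.40, 8.55 and 1.48 CPM in *Kmt2d* KO, and rose by 1.19 ± 0.22 on the log2 scale (edgeR adjusted p = 0.0073), higher in 3 of 3 pairs with overlapping groups.

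*Adamts10* had 57, 54 and 30 reads in 168FARN WT, 59, 23 and 13 in *Kmt2c* KO and 0 in all 3 *Kmt2d* KO libraries. The WT mean of 1.40 CPM was at least 29.95-fold above *Kmt2d* KO, with 3 counts over the group as the floor, and the edgeR adjusted p with the block was 0.0014. It passed the filter through the WT and *Kmt2c* KO libraries alone, so that it was tested only through the groups in which it was high. *Adam19* was at 4.04, 3.57 and 6.95 CPM in WT and at 1.47, 2.83 and 3.85 CPM in *Kmt2d* KO, and fell by 0.88 ± 0.24 on the log2 scale (edgeR adjusted p = 0.046), a call lost without the first or the third *Kmt2d* KO library or the first WT library. The other 7 calls held with each library of the compared groups left out in turn.

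In 168FARN, the inhibitors, *Adam10*, *Adam17*, *Mmp14* and *Mmp2* were not called. *Timp1* measured 67.9, 72.8 and 108.7 CPM over the WT libraries, 102.0, 108.2 and 137.8 over those of *Kmt2c* KO, and 78.0, 91.7 and 142.8 over those of *Kmt2d* KO. With the block its log2 changes were 0.50 ± 0.11 (edgeR adjusted p = 0.012) and 0.31 ± 0.11 (adjusted p = 0.11), below the size needed for a call. *Timp2* had WT values of 294.6, 344.9 and 287.3 CPM, against 342.0, 379.6 and 308.3 after loss of *Kmt2c* and 297.3, 366.3 and 353.0 after loss of *Kmt2d*. The groups overlapped, with log2 changes of 0.15 and 0.13 without the block. *Timp4* had reads in a single WT library, at 0.033 CPM.

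Of the sheddases in 168FARN, *Adam10* measured 363.6, 334.7 and 281.6 CPM over the WT libraries, 331.5, 358.6 and 301.1 over those of *Kmt2c* KO, and 419.2, 338.2 and 323.9 over those of *Kmt2d* KO. *Adam17* had WT values of 123.6, 123.9 and 146.7 CPM, against 100.8, 113.5 and 134.3 after loss of *Kmt2c* and 126.8, 120.1 and 140.7 after loss of *Kmt2d*. Groups overlapped for both genes, and the largest of their log2 changes with the block was −0.18 in size, for *Adam17* in *Kmt2c* KO. *Mmp14* measured 161.7, 209.8 and 138.2 CPM over the WT libraries, 288.5, 300.4 and 125.3 over those of *Kmt2c* KO, and 196.2, 270.0 and 126.4 over those of *Kmt2d* KO. Replicate 3 was the lowest in each group, and the log2 changes with the block were 0.41 ± 0.16 and 0.16 ± 0.16 (edgeR adjusted p = 0.12 and 0.59). *Mmp2* had WT values of 0.96, 0.48 and 0.42 CPM, against 2.34, 2.82 and 0.35 after loss of *Kmt2c* and 0.56, 0.49 and 0.44 after loss of *Kmt2d*, also with overlap and not called (log2 changes with the block 1.38 ± 0.50 and −0.23 ± 0.58).

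**Figure D4:**
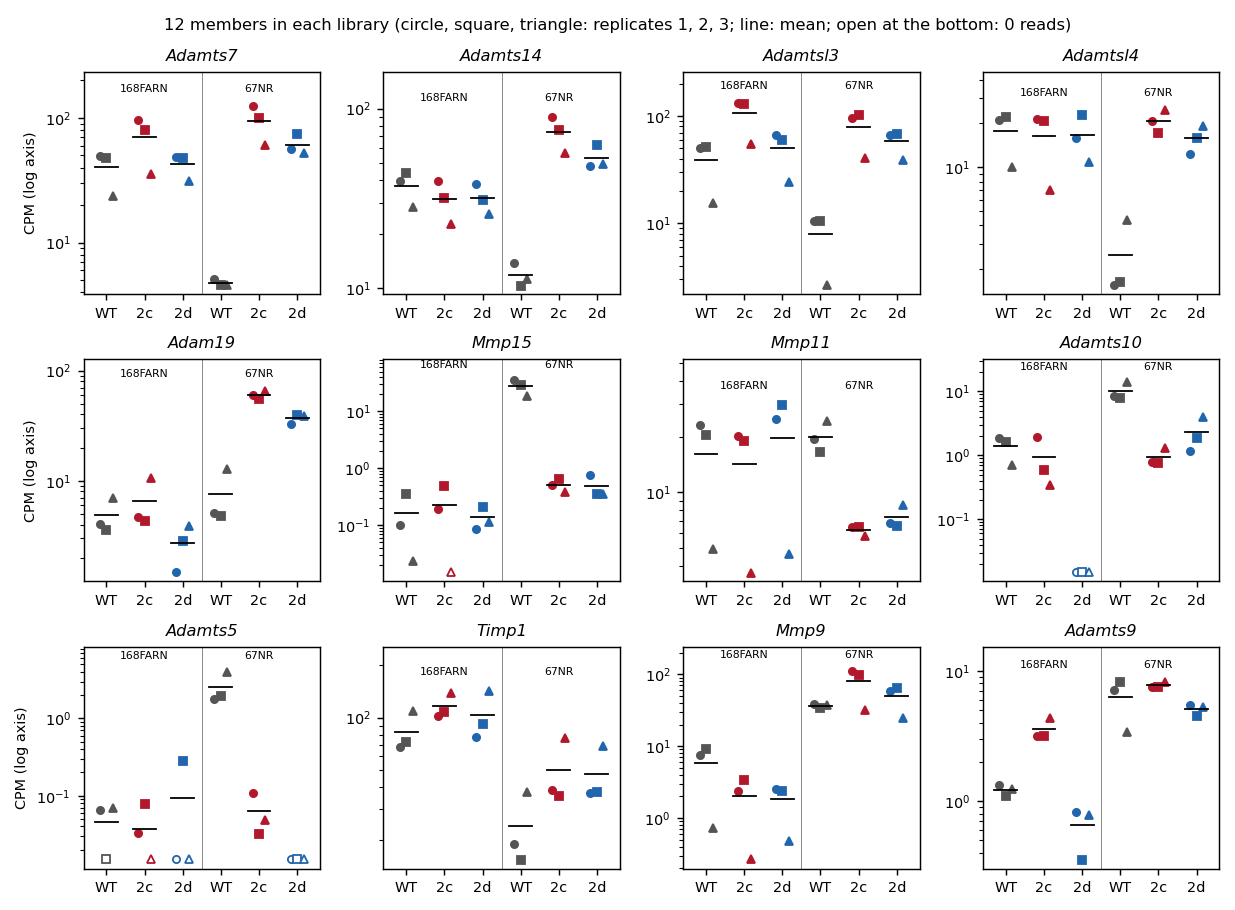
CPM of 12 members in each library on log axes, with replicates 1, 2 and 3 as circle, square and triangle, the group mean as a line, 0 reads as open symbols at the bottom, and 2c and 2d for *Kmt2c* KO and *Kmt2d* KO. In 67NR both KO groups lie above WT for *Adamts7*, *Adamts14*, *Adamtsl3*, *Adamtsl4* and *Adam19* and below it for *Mmp15*, *Mmp11*, *Adamts10* and *Adamts5*, and in 168FARN *Adamts10* is at 0 in *Kmt2d* KO.

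The KO groups were then compared with each other. In 168FARN, *Adamts9* was the single member called, higher in *Kmt2c* KO than in *Kmt2d* KO by 2.42 ± 0.39 on the log2 scale (edgeR adjusted p = 0.092), where 0.253% of all genes were called. This call was lost in each fit that left out a library of the compared groups. With the replicate block 6 members were called, where 5.33% of all genes were: *Adamtsl3*, *Adamts9*, *Adamts10*, *Adam19* and *Adamts7* were higher in *Kmt2c* KO and *Mmp28* was lower. *Adamts10* had 0 reads in *Kmt2d* KO, passed the filter through the other genotypes alone, and was at least 20.4-fold higher in *Kmt2c* KO by the same floor of 3 counts. In 67NR, *Adam12* was the single member called, lower in *Kmt2c* KO by 3.02 ± 0.65 on the log2 scale (edgeR adjusted p = 0.086), where 1.41% of all genes were called. Its call held only on leaving out the third *Kmt2d* KO library. With the block 5 members were called, where 7.28% of all genes were: *Adamts7*, *Adamts4* and *Adamts5* were higher in *Kmt2c* KO, and *Adam12* and *Adamts10* were lower. *Adamts5* passed the filter in 3 WT and 0 KO libraries, so it was tested here only through a group outside the comparison. It averaged 0.063 CPM in *Kmt2c* KO and had 0 reads in *Kmt2d* KO, at least 3.01-fold apart with 3 counts over the group as the floor. In 67NR the blocked calls of *Adamts7*, *Adamts4* and *Adamts5* held only without the third *Kmt2c* KO library, that of *Adamts10* was lost without the second *Kmt2c* KO library or the second or the third *Kmt2d* KO library, and that of *Adam12* without the first *Kmt2c* KO library. In 168FARN that of *Adamts7* was lost without the first or second library of either group, and that of *Mmp28* without the second *Kmt2c* KO library or the first or second *Kmt2d* KO library.

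Whether the KO effects differ between the lines was tested in 1 model over all 18 libraries. The effect of *Kmt2c* KO differed for 9 of 39 members, where 16.0% of all genes differed, and that of *Kmt2d* KO for 10, where 10.6% did. *Adamts7*, *Adamts14*, *Adamts12*, *Adamtsl4*, *Adam19* and *Adam8* had a higher log2 change in 67NR for both genes, and *Mmp15* a lower one for both. *Mmp15* and *Adamts5* did not pass the filter within 168FARN, and *Adamts12* had 6 reads in the first 67NR WT library and 0 in the others. *Adamts9* had a lower change in 67NR for *Kmt2c* KO alone, and for *Kmt2d* KO alone *Adamts5* had a lower and *Adamtsl3* a higher one. *Adamts10* had a lower change in 67NR for *Kmt2c* KO and a higher one for *Kmt2d* KO, the latter against the 168FARN group with 0 reads. With the replicate block 17 and 18 members differed, where 34.6% and 28.4% of all genes did, among them *Mmp9*, whose log2 change was higher in 67NR by 2.33 ± 0.45 for *Kmt2c* KO (edgeR adjusted p = 0.00098) and by 1.73 ± 0.47 for *Kmt2d* KO (adjusted p = 0.014). *Timp1* was not called without the block (0.51 ± 0.55 and 0.61 ± 0.55), and with it the log2 change was higher in 67NR for *Kmt2d* KO by 0.67 ± 0.16 (edgeR adjusted p = 0.0042).

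The levels of 4 members, chosen after their values were seen, are set beside those of 168FARN WT. *Adamtsl4* averaged 17.81 ± 6.72 CPM in 168FARN WT and 2.52 ± 1.59 in 67NR WT, against 20.9 ± 3.61 in 67NR *Kmt2c* KO and 15.8 ± 3.50 in 67NR *Kmt2d* KO (SD, n = 3). *Adamts12* averaged 1.21 ± 0.66 CPM in 168FARN WT, 0.023 ± 0.040 in 67NR WT, and 1.59 ± 0.41 and 1.00 ± 0.21 in the 67NR KO groups. *Mmp15* averaged 0.16 ± 0.18 CPM in 168FARN WT, 27.7 ± 8.16 in 67NR WT, and 0.51 ± 0.12 and 0.49 ± 0.24 in the KO groups. For the first 3 genes the 67NR KO means were nearer to the 168FARN WT mean than the 67NR WT mean was, and for *Adam19* they were not. *Adam19* averaged 4.85 ± 1.83 CPM in 168FARN WT, 7.58 ± 4.54 in 67NR WT, and 60.0 ± 5.46 and 36.8 ± 3.77 in the KO groups. These values are scaled within each line, and no test was made between the 67NR KO groups and 168FARN WT. The same 67NR WT libraries enter the line difference and the KO change, so these chosen genes cannot test a move towards 168FARN. *Adam8*, outside the 4, was higher in 67NR WT than in 168FARN WT and rose further in both KO groups.

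A list of 24 genes that activate, assist or inhibit the proteases, or are shed by ADAM10 and ADAM17, was followed beside the members. In 168FARN 0 of 18 tested were called in either KO by edgeR, where 0.359% and 0.286% of all genes were. In *Kmt2c* KO 2 had an unadjusted p under 0.05, and in *Kmt2d* KO 0. No share of all genes under that p is given, so these counts are not a result about the list. DESeq2 called 1 and 0, where 2.35% and 2.02% of all genes were called. With the block *Areg* and *Btc* rose in *Kmt2c* KO. In 67NR, 9 of 21 tested rose and 2 fell in each KO, where 17.9% of all genes rose and 17.4% fell in *Kmt2c* KO and 13.9% rose and 11.6% fell in *Kmt2d* KO. Of the 8 ErbB ligands, growth factors that are released by shedding, 5 rose in *Kmt2c* KO and 6 in *Kmt2d* KO, and *Tgfa* fell in both. *Ereg*, epiregulin, measured 6.22, 8.37 and 3.60 CPM over the 67NR WT libraries, 206.7, 242.3 and 165.2 over those of *Kmt2c* KO, and 165.9, 163.7 and 111.6 over those of *Kmt2d* KO. It rose by 5.07 ± 0.35 and 4.60 ± 0.35 on the log2 scale (edgeR adjusted p = 1.2e-05 and 2.9e-05), without overlap. *Tgfa*, transforming growth factor alpha, had 67NR WT values of 68.0, 73.4 and 61.3 CPM, against 19.2, 17.1 and 24.4 after loss of *Kmt2c* and 26.4, 29.9 and 44.6 after loss of *Kmt2d*, and had no reads in 168FARN. Of the partners of ADAM10 and ADAM17, *Tspan15* and *Tspan17*, tetraspanins that associate with ADAM10, rose in both KO groups and *Tspan5* in *Kmt2c* KO. *Lrp1*, a receptor that clears proteases and their complexes, rose by 2.14 ± 0.29 and 1.68 ± 0.29, while *Reck* and *Bsg* were not called. Of the proprotein convertases that activate the proteases, *Pcsk6* fell by 2.70 ± 0.51 and 2.68 ± 0.51 on the log2 scale, and *Furin* and *Pcsk7* were not called. *Pcsk5* had no reads in any library. Between the WT cells, 4 of 22 tested genes of the list were higher in 67NR and 7 were lower. Of all 13882 genes tested, 22.3% were higher and 16.9% were lower.

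Markers of cell types moved with the groups too. In 67NR the 15 epithelial markers, summed, ran from 3747 to 5716 CPM in WT, from 774.4 to 1173 in *Kmt2c* KO and from 1328 to 2332 in *Kmt2d* KO, and 15 and 12 of them fell. Of 18 tested mesenchymal markers, 12 rose and 1 fell in each KO. Of all genes in 67NR, 17.9% rose and 17.4% fell in *Kmt2c* KO, and 13.9% rose and 11.6% fell in *Kmt2d* KO. The mesenchymal sum of 67NR WT ran from 4121 to 6407 CPM, with a median of 6275. After loss of *Kmt2c* it ran from 6558 to 10390 (median 6586), and after loss of *Kmt2d* from 5622 to 9635 (median 5763). The median was thus little above WT for *Kmt2c* KO and below WT for *Kmt2d* KO, whose libraries overlapped WT. In 168FARN the epithelial sum was at most 392.8 CPM and 2 of 15 markers were over 1 CPM in WT, so the mammary epithelial label rests on few of its defining markers there. Of the 7 leukocyte markers, *Ptprc*, *Cd3e* and *Adgre1* were at most 0.15 CPM in every library. Of the 4 tested in 67NR, 2 rose in *Kmt2c* KO, and 1 rose and 1 fell in *Kmt2d* KO. *Cd68* made up most of the sum, which ran from 22.2 to 39.9 CPM in 67NR WT, from 24.5 to 73.3 in *Kmt2c* KO and from 29.3 to 84.9 in *Kmt2d* KO. In 168FARN, *Cd68* was between 2.78 and 5.27 CPM in replicate 3 and between 71.2 and 91.6 CPM in replicates 1 and 2 of the 3 genotypes. The 5 endothelial markers summed to at most 2.61 CPM in 67NR and 11.7 CPM in 168FARN. Of the endothelial markers tested in 67NR, 2 of 3 rose in each KO. In 168FARN *Kmt2c* KO without the block, 2 of 16 tested mesenchymal markers fell and 1 of 2 endothelial markers rose, where 0.359% of all genes were called. No marker of any list was called in *Kmt2d* KO by edgeR, where 0.286% of all genes were. There 1 epithelial, 3 mesenchymal and 1 endothelial marker had an unadjusted p under 0.05. No share of all genes under that p is given, so these counts are not a result about the markers. DESeq2 called 1 epithelial and 3 mesenchymal markers in *Kmt2d* KO, where 2.02% of all genes were called. With the replicate block, on which the member calls of 168FARN rest, *Twist2* and *Cdh5* rose and *Col3a1*, *Col5a2*, *Krt7* and *Lyz2* fell in *Kmt2c* KO. With it in *Kmt2d* KO, *Twist1*, *Twist2*, *Fn1*, *Col3a1* and *Vwf* rose and *Snai2* and *Krt7* fell. The part of these cell states in the members' changes was not tested.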

How the data were processed

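RNA was sequenced from 168FARN and 67NR cells of 3 genotypes, with 3 replicates each. Per the study's methods, the authors made stranded mRNA libraries and aligned 150-bp read pairs with STAR in the VIPER pipeline, with mm9 named as build. They deposited raw read counts per gene symbol, 1 table per line. The counting tool's strand setting, annotation and versions are not given in the sources used here. Replicates were consecutive passages of the same pool of cells.

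Members were taken by symbol, and the members and all gene lists were chosen with earlier results of these data known. Counts were tested with edgeR 4.0.16 (quasi-likelihood, robust, TMM scaling, expression filter by group; R 4.3.3), on the 9 libraries of a line or on all 18 between lines, with Benjamini-Hochberg adjustment over all genes tested. A call needed an adjusted p under 0.1 and a log2 change over 0.6 in size. DESeq2 1.42.0 and other filters, scalings, thresholds and left-out libraries were alternatives. Same-numbered replicates deviated together from their group means (correlations 0.751 to 0.93 in 168FARN and 0.49 to 0.834 in 67NR). Pairs with different numbers ran from −0.896 to 0.824 in 168FARN and from −0.777 to 0.734 in 67NR. Of these, pairs of replicates 1 and 2 were all positive, and pairs with replicate 3 all negative. The methods treat each collection time as a batch for heatmaps, while the study's own differential test had genotype as its factor. Because of that batch, a fit with the replicate number as a block within each line was also made. It pairs no library of 1 line with the other. CPM are scaled within a line, and log2 differences between lines come from the 18-library fit. Levels per length used exon lengths of GENCODE vM1 on mm9, which holds 73 of the 74 members. ADAMs were split by the zinc-binding letters of the protease site in translated vM1 transcripts. Genes given in full were *Timp1* to *Timp4*, *Mmp2*, *Mmp9*, *Mmp14*, *Adam10*, *Adam17* and up to 8 called members per KO comparison. Counting intervals and floors (3 counts) cover counting error only. Tables were read with Python 3.11.15 and pandas 2.3.3, and drawn with matplotlib 3.10.9.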

Additional observations from a re-analysis of the deposited data

Results flagged for a closer look

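The members below were picked out because the effect of a KO differed between the lines by a test of the difference itself (edgeR's quasi-likelihood interaction term, n = 3 per group, 39 members tested). Values are the log2 change in 67NR minus that in 168FARN. Line and count table cannot be told apart.

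For *Kmt2c* KO the difference was 3.44 for *Adamts7*, 2.80 for *Adamts14*, 4.96 for *Adamts12*, 3.10 for *Adamtsl4*, 2.49 for *Adam19* and 1.53 for *Adam8*. It was −6.39 for *Mmp15*, −2.94 for *Adamts10* and −1.31 for *Adamts9*. *Mmp15* did not pass the filter within 168FARN, where it had 3, 12 and 1 reads in WT and 6, 19 and 0 in *Kmt2c* KO. The value of *Adamts12* rests on 6 reads in 67NR WT, and ran from 4.41 to 8.33 over the fits with 1 library left out. The call of *Adamts9* held only on leaving out the third 67NR WT library. That of *Adamts10* was lost without the first *Kmt2c* KO library of either line, the second *Kmt2c* KO library of 67NR, or the second or the third 168FARN WT library.

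For *Kmt2d* KO the difference was 3.54 for *Adamts7*, 2.34 for *Adamts14*, 4.29 for *Adamts12*, 2.71 for *Adamtsl4*, 3.06 for *Adam19*, 1.51 for *Adam8* and 2.45 for *Adamtsl3*, and −5.59 for *Mmp15*. The few reads of *Mmp15* in 168FARN and of *Adamts12* in 67NR WT limit these values too. *Adamts10* was at 6.80 and *Adamts5* at −10.49, and both values rest on a KO group with 0 reads, so that their size depends on the fit's prior count. The call of *Adamtsl3* held only without the third WT library of 168FARN or the third *Kmt2d* KO library of 67NR, and that of *Adamts5* was lost without the second *Kmt2d* KO library of 168FARN.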

How the results depend on the processing

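For 119 pairs of a named gene and a comparison, 1684 alternative values were computed: 1478 kept direction and side of the threshold, 109 fell below it, 97 rose above it and 0 reversed. Of the counts of called members, 168FARN *Kmt2c* KO against WT went from 0 to 1 with DESeq2, 4 with the replicate block and 8 on replicates 1 and 2, and *Kmt2d* KO from 0 to 1, 4 and 5. *Kmt2c* KO against *Kmt2d* KO went from 1 to 2, 6 and 9 in 168FARN and from 1 to 3, 5 and 15 in 67NR under the same alternatives, and to 0 in both at an adjusted p under 0.05 or with no filter on low counts. The interaction counts went from 9 to 17 for *Kmt2c* KO and from 10 to 18 for *Kmt2d* KO with the block, and to 21 and 18 on replicates 1 and 2. The shares of all genes called on replicates 1 and 2 alone are not given, nor are those called by DESeq2 between KO groups. Those counts are therefore not a result about the members. The cause was not tested. Between WT cells the replicate block, set within each line, added *Adamts1*, *Adam11* and *Adam1a*. It changed no other call of a member between groups within a line beyond those given in the report.

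With 1 library left out, the calls numbered 0 to 0 in 168FARN against WT for each KO and between its KO groups, 15 to 20 and 11 to 17 in 67NR *Kmt2c* KO and *Kmt2d* KO, 0 to 1 between the 67NR KO groups, 22 to 26 between WT cells, and 7 to 10 and 8 to 10 in the interactions. With the block, an alternative added after seeing the data, they numbered 4 to 7 and 3 to 6 in 168FARN and 18 to 22 and 19 to 23 in 67NR against WT, and 4 to 9 and 1 to 9 between KO groups. Depth limits the members under 1 CPM, whose calls rest on few reads.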
